A study of Mus musculus with 10 samples.

Results

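The regions described here are SMAD3 CUT&Tag regions at gene promoters, that is, the regions of the deposited SMAD3 table that the authors' annotation places within 3 kb of a transcription start site. They number 11098 of the 58633 regions in that table and carry the names of 8250 genes. The annotation divides them into 6731 regions within 1 kb of a start site, 2316 regions at 1 to 2 kb and 2051 regions at 2 to 3 kb. The remaining 47535 regions, in introns, exons and between genes, are called the regions elsewhere and are used only for comparison.

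The study profiled primary mouse cardiac fibroblasts by CUT&Tag, in which a transposase tethered to an antibody cuts and labels the DNA near the bound protein, and the labelled fragments are sequenced. There was 1 SMAD3 library of cells treated with TGF-β, called TGF, and 1 SMAD3 library of cells transfected with siRNA against Hk1 (hexokinase 1) and then treated with TGF-β, called siHK1. Both libraries therefore come from TGF-β-treated cells. The study's methods give a C57BL/6 J background for its mouse strains, but whether the TGF library received a control siRNA, and the strain, sex and age of the fibroblast donors, are not given in the sources used here. With 1 library per condition and antibody, no test between conditions was possible, each statement compares libraries, and the knockdown of Hk1 itself was not checked because no RNA was analysed here. Pairs of libraries for JUN, NFATC2 and histone H3 lactylated at lysine 9 (H3K9lc), made in the same way, are used beside the SMAD3 pair. The label of the H3K9lc knockdown library says only SI, which was read as siHK1 because its table is named so, and every H3K9lc ratio rests on that reading.

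SMAD3 is the transcription factor that the TGF-β type I receptor phosphorylates. Phosphorylated SMAD3 joins SMAD4, enters the nucleus and binds short GTCTG elements, usually with partners such as the AP-1 factors JUN and FOS. In fibroblasts this pathway turns on matrix, contractile and feedback genes, and it acts through promoters as well as through distant enhancers.

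The sequences behind the comparison are shown first. Each is the 200 bases around the middle of a promoter region that carried one of the largest differences, belongs to a TGF-β target, pathway or contractile gene, or holds a rare palindromic SMAD element, read on the plus strand of GRCm38 from the RefSeq assembly. Every window lies outside annotated exons. Capitals mark 3 SMAD elements and the AP-1 element, searched on both strands. The SMAD elements were the core box GTCTG, which reads CAGAC on the other strand, its palindromic form GTCTAGAC and the GC-rich form GGCGCC. The AP-1 element was TGANTCA. The windows are Poc1b at chr10:99170729-99170928, Spaca6 at chr17:17826690-17826889, Dusp28 at chr1:92906756-92906955, Skil at chr3:31094447-31094646 and Myh9 at chr15:77842353-77842552. The others are Mfap5 at chr6:122508648-122508847, Smad3 at chr9:63746251-63746450, Spata1 at chr3:146477480-146477679 and Prune2 at chr19:17139016-17139215.
Poc1b: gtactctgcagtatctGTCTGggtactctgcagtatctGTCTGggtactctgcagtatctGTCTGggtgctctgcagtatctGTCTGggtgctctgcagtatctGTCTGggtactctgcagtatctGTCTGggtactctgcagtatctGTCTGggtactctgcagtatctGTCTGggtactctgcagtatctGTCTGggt
Spaca6: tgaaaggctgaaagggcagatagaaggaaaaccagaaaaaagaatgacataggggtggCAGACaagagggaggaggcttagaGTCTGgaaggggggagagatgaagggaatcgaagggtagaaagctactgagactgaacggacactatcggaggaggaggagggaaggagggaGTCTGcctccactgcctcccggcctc
Dusp28: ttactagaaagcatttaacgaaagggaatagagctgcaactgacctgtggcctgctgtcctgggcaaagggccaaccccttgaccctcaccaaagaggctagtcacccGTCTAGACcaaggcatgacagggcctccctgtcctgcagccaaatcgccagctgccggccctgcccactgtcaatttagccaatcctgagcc
Skil: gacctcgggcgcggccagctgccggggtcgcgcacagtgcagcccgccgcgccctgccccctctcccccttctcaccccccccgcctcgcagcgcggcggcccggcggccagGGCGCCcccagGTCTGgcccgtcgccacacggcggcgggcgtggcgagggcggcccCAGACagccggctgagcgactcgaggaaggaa
Myh9: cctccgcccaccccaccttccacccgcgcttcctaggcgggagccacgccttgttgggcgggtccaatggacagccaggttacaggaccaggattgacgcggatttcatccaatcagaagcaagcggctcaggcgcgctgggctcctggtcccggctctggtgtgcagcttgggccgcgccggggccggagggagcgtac
Mfap5: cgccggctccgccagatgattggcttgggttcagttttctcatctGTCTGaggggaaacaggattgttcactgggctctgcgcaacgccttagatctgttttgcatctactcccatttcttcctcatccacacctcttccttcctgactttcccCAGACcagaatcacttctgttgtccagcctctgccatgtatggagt
Smad3: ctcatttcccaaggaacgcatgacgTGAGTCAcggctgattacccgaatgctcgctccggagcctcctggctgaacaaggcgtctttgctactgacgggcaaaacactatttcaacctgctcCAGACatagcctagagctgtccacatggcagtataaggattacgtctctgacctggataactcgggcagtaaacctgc
Spata1: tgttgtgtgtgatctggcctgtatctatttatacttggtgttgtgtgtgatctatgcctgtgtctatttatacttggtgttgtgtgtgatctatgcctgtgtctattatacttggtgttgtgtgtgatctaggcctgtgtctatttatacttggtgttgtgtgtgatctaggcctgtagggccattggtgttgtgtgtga
Prune2: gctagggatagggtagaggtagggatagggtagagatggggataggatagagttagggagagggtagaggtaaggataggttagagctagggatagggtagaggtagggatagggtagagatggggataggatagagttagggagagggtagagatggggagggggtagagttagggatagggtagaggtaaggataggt

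Of these windows, those of Spata1 and Prune2 belong to regions lower in the siHK1 library, that of Smad3 held equal raw reads in both libraries, and the others belong to regions higher in it. The Poc1b window held 9 GTCTG elements in a tandem repeat, in which 98.9% of bases equalled the base 22 positions on. The Prune2 window was also a tandem repeat, with 83.1% of bases equal at 34 positions, and it held no SMAD element. The Skil window, with 80.5% G and C bases, combined the GC-rich element GGCGCC with 2 GTCTG elements. The Dusp28 window held GTCTAGAC, a palindromic SMAD element, and was chosen after its values were seen.

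The comparison of the siHK1 library with the TGF library asks how SMAD3 occupancy at promoters differs when Hk1 is knocked down in TGF-β-treated cells. The read total over all listed regions was 563562 in the TGF library and 399897 in the siHK1 library, so the TGF total was 1.41 times the siHK1 total. The regions within 1 kb of a start site went against this difference in totals, with 45029 reads in the TGF library and 52013 in the siHK1 library. At 1 to 2 kb the reads were 14654 and 11680, at 2 to 3 kb 15945 and 11211, and elsewhere 487934 and 324993. The start-site class thus held more raw reads in the library with the smaller total, and the other classes held fewer.

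As a share of all reads in the table, the regions within 1 kb took 7.99% in the TGF library (95% exact Clopper-Pearson interval 7.92 to 8.06) and 13.0% in the siHK1 library (12.9 to 13.1). The regions at 1 to 2 kb took 2.60% and 2.92%, and those at 2 to 3 kb took 2.83% and 2.80%. The difference in read share therefore lay almost wholly in the class nearest to the start site. These intervals cover counting error only, since copies made by PCR are not independent molecules and there are no replicates.

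**Figure D1:**
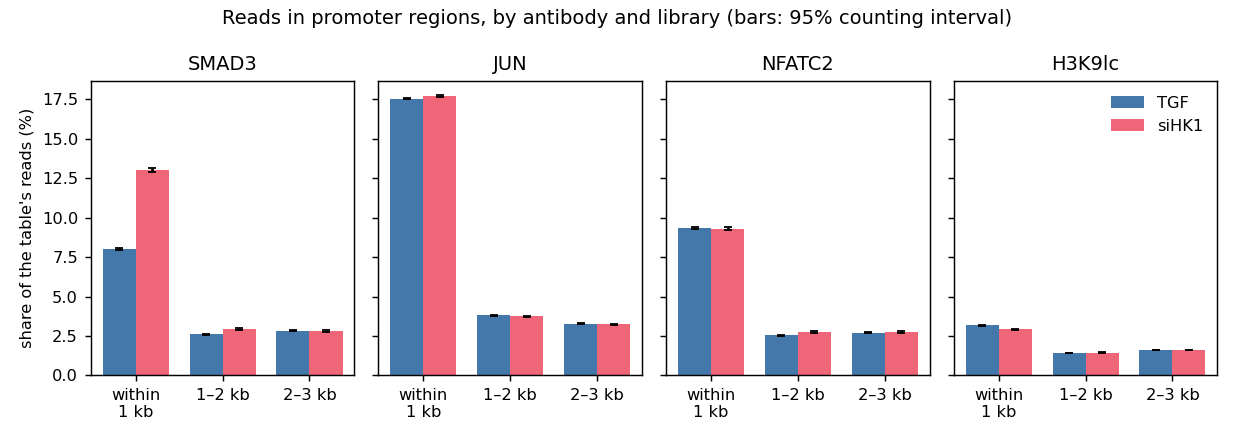
Share of each table's reads (vertical axis, %) in the 3 promoter classes for the TGF and siHK1 libraries of 4 antibodies, with 95% counting intervals. The SMAD3 share within 1 kb was 7.99% in TGF and 13.0% in siHK1, whereas the JUN shares were 17.5% and 17.7%.

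The same was seen region by region. With both libraries brought to equal totals and 0.5 added to each scaled count, the log2 ratio of siHK1 over TGF had a median of 0.95 within 1 kb (quartiles -0.08 and 1.70), 0.40 at 1 to 2 kb (-1.15 and 1.60) and 0.40 at 2 to 3 kb (-1.15 and 1.56). It was -0.21 for the regions elsewhere. The class within 1 kb exceeded the regions elsewhere on 20 of 20 chromosomes among 1 to 19 and X, with medians per chromosome of 0.78 to 1.47 against -0.38 to 0.07. On chromosome Y, with 4 promoter regions, the order was reversed, at -0.88 and -0.37. The counts were low, with a median of 4 reads per promoter region in either library, so single regions are far less certain than the classes.

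The peak calls, which the authors made for each library, showed the same order. Of the regions within 1 kb, 63.7% had a peak in the siHK1 library only, 26.8% in the TGF library only and 9.18% in both. Elsewhere these shares were 45%, 50.4% and 4.43%. Nearly every region had a peak in at least 1 library, with 29 promoter regions as exceptions, so regions with a peak in 1 library alone lean towards that library. For regions with a peak in both, the median log2 ratio was 0.61 within 1 kb (618 regions), 0.13 at 1 to 2 kb (103 regions), 0.07 at 2 to 3 kb (90 regions) and -0.09 elsewhere (2106 regions).

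To count regions that differed by at least 2-fold, a mean scaled count of at least 10 was required, which 1607 of the 11098 promoter regions reached. Of these, 675 were higher in siHK1 (42.0%) and 38 were lower (2.36%), beside 23.5% higher and 10.3% lower among all SMAD3 regions that reached the minimum. Within 1 kb, 579 of 1249 regions were higher and 16 lower. At 1 to 2 kb the counts were 48 and 7 of 180, and at 2 to 3 kb 48 and 15 of 178. Elsewhere 639 were higher and 539 lower of 3991. For 546 of the 675 higher promoter regions the 95% counting interval of the ratio lay above 0, which describes their precision only, since they were chosen by that ratio.

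These counts have limits. Of the 675 higher regions, 488 had under 10 scaled reads in the TGF library and passed the minimum through the siHK1 library, so they had to differ, and 532 had a peak in that library only. Of the 38 lower regions, 24 had under 10 scaled reads in the siHK1 library and passed through the TGF library. Without scaling, the split became 234 higher and 152 lower.

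The ratio followed the position of the region relative to the start site. Regions lying on the start site itself, 2717 in number, had a median log2 ratio of 1.03, with 20944 reads in the TGF library and 27849 in the siHK1 library. The 1216 regions within 0.5 kb downstream had a median of 0.98, and the 1391 regions within 0.5 kb upstream 0.90. Between 0.5 and 1 kb the median was 0.46 upstream and 0.62 downstream. Beyond 1 kb it lay between 0.21 and 0.44 on either side. Just inside the 3 kb limit, at 2.5 to 3 kb, 996 regions had a median of 0.40, and just outside it, at 3 to 5 kb, 3397 regions had 0.28, so the limit itself marked no step.

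**Figure D2:**
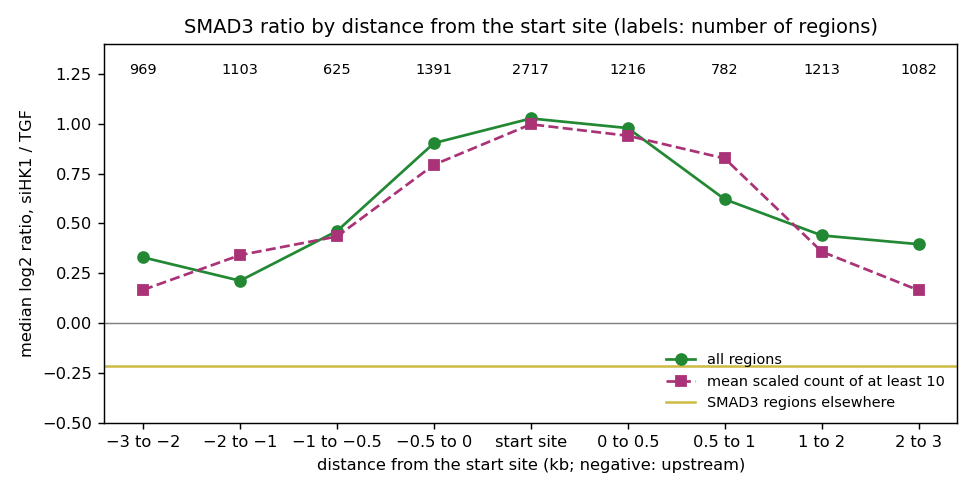
Median siHK1 over TGF log2 ratio (vertical axis) by distance of the SMAD3 region from the start site (horizontal axis, kb), for all promoter regions and for those with a mean scaled count of at least 10. The median is highest, 1.03, for the 2717 regions on the start site and lower on both sides, at 0.21 to 0.44 beyond 1 kb for all regions.

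The regions nearest to start sites also differ in base composition, and the ratio moved with it. Promoter regions within 1 kb had a median of 56.8% G and C bases, against 48.4% at 1 to 2 kb, 47.9% at 2 to 3 kb and 45.1% elsewhere. Among all promoter regions the median log2 ratio was -0.37 where G and C bases made up under 40%, 0.44 at 45 to 50%, 0.95 at 55 to 60% and 1.09 at 65% or more. In the regions elsewhere it was -0.67, -0.07, 0.40 and 0.35 in the same bins. The order elsewhere broke at 60 to 65%, where 778 regions had a median of -0.08. Promoter regions had the higher median in 7 of 7 bins, by 0.30 to 1.12. In the regions that reached the level minimum this held in 6 of 7 bins. The part of base composition in the difference between libraries was not tested.

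CpG content went with the ratio within 1 kb and showed no steady order at 1 to 2 kb, at 2 to 3 kb or elsewhere. Promoter regions with an observed over expected CpG ratio under 0.2 had a median log2 ratio of 0.33. Those at 0.8 or more, the range of CpG islands, had 1.08 (1561 regions, of which 1498 lay within 1 kb). By class these medians were 0.40 and 1.09 within 1 kb. At 1 to 2 kb they were 0.25 and 0.69, with 0.15 at 0.4 to 0.6. At 2 to 3 kb they were 0.33 and -0.49, the latter from 27 regions. Regions elsewhere had -0.37 under 0.2, 0.07 at 0.2 to 0.4 and -0.41 at 0.8 or more (449 regions). Repeats went with low ratios at promoters and elsewhere. Promoter regions with under 20% repeat-masked bases had a median of 0.90 (8217 regions), those with 80% or more had -0.43 (463 regions), and with repeats under 20% the regions within 1 kb rested on 35446 TGF reads and 44800 siHK1 reads.

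**Figure D3:**
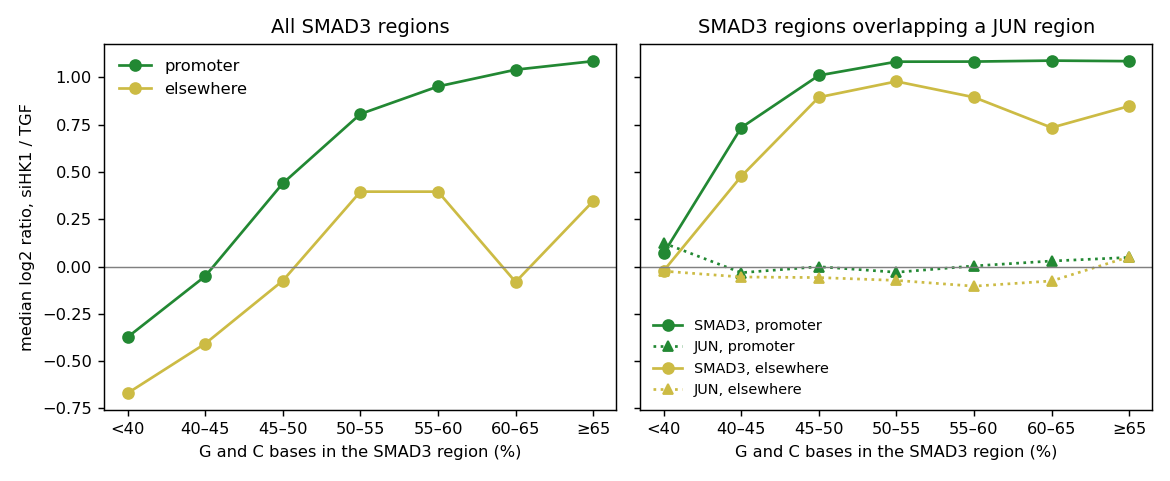
Median log2 ratio of siHK1 over TGF (vertical axis) by the percent of G and C bases in the SMAD3 region (horizontal axis), for all SMAD3 regions (left) and for those that overlap a JUN region, with the JUN ratio at the same places (right). SMAD3 at promoters climbs from -0.37 to 1.09 on the left, whereas JUN at promoters on the right stays between -0.03 and 0.12.

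JUN, the AP-1 subunit, was the antibody that shared most promoter regions with SMAD3. It also had the most promoter regions of its own, 18689 beside 11663 for NFATC2 and 5070 for H3K9lc. The part of these numbers in the overlap was not tested. Within 1 kb, 58.7% of SMAD3 regions overlapped a JUN region by at least 1 base (57.5 to 59.9), beside 22.8% at 1 to 2 kb, 23.1% at 2 to 3 kb and 17.9% elsewhere. At the level minimum the share was 90.2% of promoter regions and 60.5% of regions elsewhere. NFATC2, a calcium-dependent factor, overlapped 26.6% of SMAD3 regions within 1 kb and 12.6% elsewhere, but at the level minimum 67.2% and 68.1%. H3K9lc overlapped 7.53% within 1 kb and 8.72% elsewhere, and at the level minimum 21.5% and 41.7%. None of the other antibodies overlapped 5571 of the 11098 promoter regions (50.2%), beside 72.1% of the regions elsewhere. All 3 overlapped 408 promoter regions (3.68%), beside 2.57% elsewhere. Of the 1607 promoter regions at the level minimum, 63 overlapped none of them and 306 overlapped all 3.

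At the promoters that SMAD3 and JUN shared, the antibodies differed. The 4954 shared promoter regions had a median SMAD3 log2 ratio of 1.08, with 49818 TGF reads and 55076 siHK1 reads, whereas the JUN ratio at the same places was 0.02 (quartiles -0.31 and 0.28). The 6144 promoter regions without a JUN region had a median SMAD3 ratio of 0.33. JUN overlap went with a higher ratio away from promoters too, at 0.79 for 8504 regions with it and -0.45 for 39031 regions without it. The difference between promoters and the regions elsewhere was 1.01 over all regions, 0.29 among regions that overlapped JUN and 0.78 among those that did not. The subset was chosen after the values were seen.

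H3K9lc went the other way at the few regions within 1 kb where it was found. At the 507 SMAD3 regions within 1 kb that overlapped an H3K9lc region, the H3K9lc log2 ratio had a median of -0.33 (quartiles -0.97 and 0.11), against 0.00 at 129 shared regions at 1 to 2 kb, -0.01 at 122 at 2 to 3 kb and -0.02 at 4145 elsewhere. At the 170 shared promoter regions with 65% or more G and C bases the median was 0.98 for SMAD3 and -0.43 for H3K9lc. With fewer G and C bases this was not so: the medians were -0.33 and 0.10 at the 34 shared regions under 40%, -0.39 and 0.08 at the 71 at 40 to 45%, and -0.40 and -0.03 at the 82 at 45 to 50%. NFATC2 at its 1793 shared regions within 1 kb had -0.03.

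The other antibodies gave smaller differences between the classes. Within 1 kb minus elsewhere, the difference of median log2 ratios in each antibody's own table was 1.17 for SMAD3, 0.05 for JUN, -0.20 for NFATC2 and -0.06 for H3K9lc. Among regions at the level minimum it was 1.09, 0.04, 0.15 and -0.03, so that of NFATC2 changed its sign. The read share within 1 kb was 17.5% in the TGF library and 17.7% in the siHK1 library for JUN, 9.36% and 9.29% for NFATC2, and 3.17% and 2.91% for H3K9lc. With 1 library per antibody and condition, the difference between the pairs was not tested, and a library that stands apart cannot be told apart from its condition.

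Sequence elements were counted in the central 200 bases of each region. GTCTG, the core SMAD element, was present in 38.9% of regions within 1 kb, 40.3% at 1 to 2 kb, 40.6% at 2 to 3 kb and 37.9% elsewhere, and in 35.5% of equally long windows taken from just upstream of 32851 RefSeq start sites. The SMAD GC element GGCGCC was found in 9.18% within 1 kb, 1.21% at 1 to 2 kb and 0.65% elsewhere, with 8.43% in the RefSeq windows. The palindrome GTCTAGAC was found in 0.21% within 1 kb and in 0.21% elsewhere. A match says only that the letters are there.

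Several GC-rich promoter elements were more frequent near the start site. The GC box GGGCGG, bound by SP1-family factors, was in 26.7% of regions within 1 kb, 4.10% at 1 to 2 kb and 2.24% elsewhere, with 31.0% in the RefSeq windows. The ETS element CCGGAAG was in 4.98% and 0.67%, and the NRF1 element GCATGCGC in 2.60% and 0.33%. AP-1, as TGANTCA, was less frequent within 1 kb (4.92%) than elsewhere (6.87%), and NFAT, as TGGAAA, stood at 12.9% and 16.3%. Within 1 kb the TEAD element ACATTCC was in 2.41% of regions, the box CCAAT in 19.7%, the E-box CACGTG in 4.62% and the cyclic AMP element TGACGTCA in 0.82%. Elsewhere these shares were 2.95%, 24.4%, 2.51% and 0.10%. At the level minimum the order within 1 kb against elsewhere turned for NFAT (9.85% and 7.49%), TEAD (2.40% and 2.26%) and CCAAT (23.6% and 11.1%), so no direction is given for them. The RefSeq windows held TEAD in 2.61%, the CCAAT box in 29.3%, the E-box in 5.26% and the cyclic AMP element in 1.47%. They held ETS in 6.29%, NRF1 in 2.10%, AP-1 in 5.48% and NFAT in 14.7%. The core SMAD box can share an end base with its palindrome, and the GC-rich SMAD element can overlap the GC box.

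The ratio was then compared between regions with and without an element. Within 1 kb, regions with GTCTG and without it both had a median log2 ratio of 0.95. Regions with the GC box had 1.08 and those without it 0.89. The 14 regions with the palindrome had 1.53. Farther out, regions with and without GTCTG had 0.42 and 0.33 at 1 to 2 kb, and 0.44 and 0.33 at 2 to 3 kb. With and without AP-1 the medians were 0.90 and 0.95 within 1 kb. They were 0.87 and 0.33 at 1 to 2 kb, and 0.80 and 0.33 at 2 to 3 kb. The 22 promoter regions with the palindrome had 131 TGF reads and 174 siHK1 reads, and 16 of the 22 had a ratio above 0, beside 66.5% of all promoter regions. The 5 best-read of them were not alike. Gm20544, a predicted gene near Smad7 on chromosome 18, had the most with 36 TGF reads and 24 siHK1 reads. The other four were higher in siHK1: Dusp28, a dual-specificity phosphatase gene, with 4 TGF and 17 siHK1 reads, Phactr1, an actin and phosphatase regulator, with 9 and 19, Sardh, a sarcosine dehydrogenase gene, with 8 and 18, and Atad2b, a bromodomain protein gene, with 5 and 14. They were chosen after their values were seen.

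**Figure D4:**
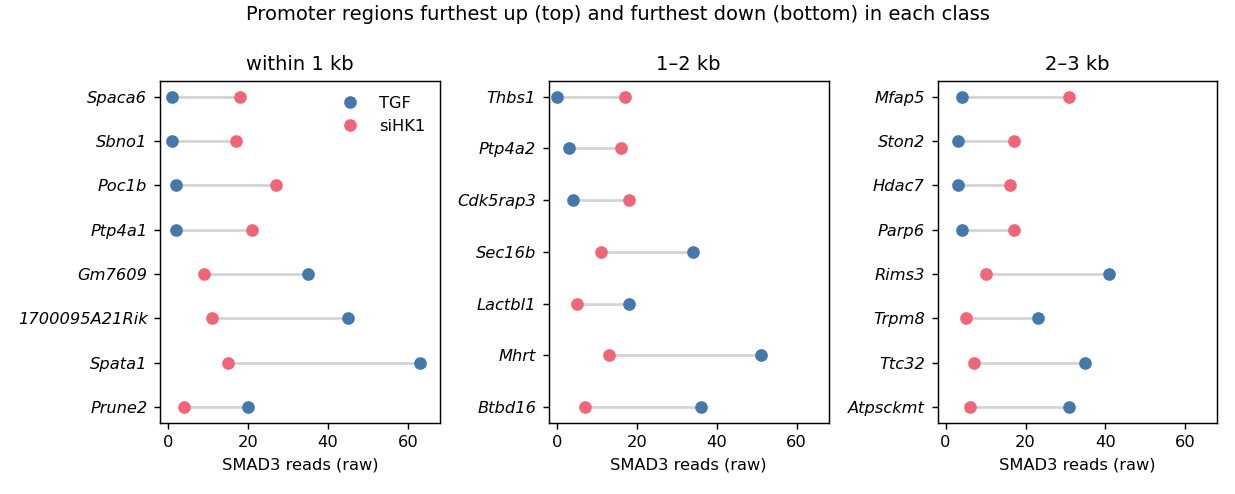
Raw SMAD3 reads (horizontal axis) in the TGF and siHK1 libraries for up to 4 promoter regions furthest up and 4 furthest down in each distance class, at a mean scaled count of at least 10. The regions furthest up held 0 to 4 TGF reads and 16 to 31 siHK1 reads, and those furthest down 18 to 63 and 4 to 15.

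The largest single differences are described by class, with a 95% counting interval for each log2 ratio. Within 1 kb, the region furthest up lay 102 bases upstream of Spaca6, a gene of sperm and egg fusion, at chr17:17826523-17827056. It held 1 TGF read and 18 siHK1 reads, a log2 ratio of 4.03 (2.0 to 10.05). A region on the start site of Sbno1, a helicase-like cofactor gene, held 1 and 17 reads, a ratio of 3.95 (1.91 to 9.97). The tandem repeat in Poc1b, a centriole gene, held 2 and 27 reads, a ratio of 3.90 (2.26 to 7.37). The region over the start site and untranslated exon of Ptp4a1, a phosphatase gene, held 2 and 21 reads, a ratio of 3.54 (1.85 to 7.02).

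At 1 to 2 kb, the region furthest up was in Thbs1, which encodes thrombospondin-1, an activator of latent TGF-β. It lay at chr2:118124917-118125335, 1977 bases downstream of the start site over coding and untranslated exons, and held 0 TGF reads and 17 siHK1 reads. With no TGF read the log2 ratio has no upper limit, and its 95% lower limit was 2.54. JUN at the same place had 59 reads in its TGF library and 33 in its siHK1 library, a log2 ratio of 0.05 after scaling. Ptp4a2, a phosphatase gene related to Ptp4a1, held 3 and 16 reads, a ratio of 2.69 (1.11 to 5.33). Cdk5rap3 held 4 and 18.

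At 2 to 3 kb, the region furthest up was annotated to Mfap5, which encodes a microfibril glycoprotein of fibroblasts, at chr6:122508416-122509079. It held 4 TGF reads and 31 siHK1 reads, a ratio of 3.27 (1.95 to 5.41). Ston2, an endocytic adaptor gene, held 3 and 17 reads, Hdac7, a class IIa histone deacetylase gene, 3 and 16, and Parp6, an ADP-ribosyltransferase gene, 4 and 17. All 12 of these regions furthest up overlapped a JUN region, 8 of the 12 held a GTCTG element and 1 was over 50% repeat-masked. Among all 675 higher promoter regions 96.7% overlapped JUN and 40.1% held GTCTG. These 12 regions, with 0 to 4 TGF reads, passed the level minimum through the siHK1 library.

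Of the 12 regions furthest down, 6 overlapped a JUN region, 11 an NFATC2 region and 7 an H3K9lc region, 2 held GTCTG, and 5 were over 50% repeat-masked. Of these 12, 6 held under 10 scaled siHK1 reads and passed the level minimum through the TGF library. Among all 38 lower promoter regions 50% overlapped JUN, 71.1% NFATC2 and 50% H3K9lc, and 23.7% held GTCTG. Among the 894 within 2-fold these shares were 86.9%, 71.9%, 29.0% and 35.3%. Within 1 kb, Prune2 held 20 TGF reads and 4 siHK1 reads, a log2 ratio of -1.72 (-3.84 to -0.25), and Spata1, a spermatogenesis gene, held 63 and 15, a ratio of -1.55 (-2.49 to -0.75). The other regions furthest down in that class carried the predicted genes 1700095A21Rik (45 and 11 reads) and Gm7609 (35 and 9).

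Farther out, Btbd16 at 1 to 2 kb held 36 and 7 reads, a ratio of -1.81 (-3.28 to -0.68), in a region that was 96.3% repeat-masked and also in an intron of Fgfr2. Mhrt, a long non-coding RNA gene of the heart, in a region over its intron and an untranslated exon of Myh7, held 51 and 13 reads, a ratio of -1.45 (-2.48 to -0.58). At 2 to 3 kb, Atpsckmt, a mitochondrial lysine methyltransferase gene, held 31 and 6 reads in a region that was 96.5% repeat-masked. Rims3, a synaptic vesicle gene, held 41 and 10 reads in a tandem repeat of 24 bases. Among promoter regions at the level minimum, 75 of 1607 were tandem repeats by a self-match of 80% or more, a rule chosen after seeing the data. Their median log2 ratio was -0.09, against 0.87 for the others.

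The 10 promoter regions with the most reads were repeated sequences and multicopy genes, so their reads cannot be assigned to 1 locus with certainty. The highest level was a region at 2 to 3 kb from Mir101c on chromosome 9, 96.1% repeat-masked, with 3406 TGF reads and 1509 siHK1 reads. Regions of Rn45s, the ribosomal RNA precursor, held up to 983 and 571 reads, and those of Sfi1, a centriole gene with many partial copies, up to 559 and 248. The log2 ratios of the 10 highest regions ran from -0.81 to -0.11, all below 0. The 111 most-read promoter regions held 24.9% of promoter reads in the TGF library and 14.8% in the siHK1 library. As a set they were unlike the 10 highest, with a median of 11.3% repeat-masked bases. Their median log2 ratio was 0.10, and 53 of the 111 were below 0. Of the promoter regions with a peak in both SMAD3 libraries and regions of all 3 other antibodies, the best-read were again Mir101c, 9230019H11Rik and Rn45s.

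Most genes had a single promoter region, 6173 of 8250, and 46 genes had 5 or more. Sfi1 had 16, with 3825 TGF reads and 1808 siHK1 reads and no region above 0. Foxp1, a forkhead repressor gene, had 9 regions with 40 and 50 reads, and Tns1, a focal adhesion gene, 7 with 50 and 77. Synj2, a phosphoinositide phosphatase gene, had 7 with 30 and 66, and all 7 were above 0, whereas Itsn1, an endocytic scaffold gene, had 7 with 36 and 28, of which 3 were above 0. Of 21900 protein-coding genes in RefSeq, 5289 had a SMAD3 region within 1 kb (24.2%) and 9466 a JUN region. The genes shared by both, 4117, made up 77.8% of the former and 43.5% of the latter.

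The pathway genes are given by the best-read promoter region of each gene. For the share of genes with a region in each list, the comparison is 7513 of the 21900 protein-coding genes in RefSeq. Over all 8251 genes or unnamed entries with such a region, the median log2 ratio was 0.83 and 68.8% were above 0, and of the 1495 at the level minimum 42.0% were higher and 2.41% lower. Among 30 immediate TGF-β targets and feedback genes, 19 had a SMAD3 promoter region, with 133 TGF reads and 246 siHK1 reads in all. Their median ratio was 1.20, and 16 of 19 were above 0. The 6 that reached the level minimum were higher, of which Bhlhe40 (7 and 12 reads) and Thbs1 passed it through the siHK1 library. The list shares Junb, Skil and Ski with the partner genes described next. Ccn2, Id1, Id2, Id3, Bambi and Snai1, which are common readouts of TGF-β or related signals, were among the 11 without a region.

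Among the feedback genes, Skil, which encodes the SMAD repressor SnoN, had the highest level with 23 TGF reads and 34 siHK1 reads on its start site, a ratio of 1.04 (0.25 to 1.89). Junb, an AP-1 gene, held 19 and 30 reads 1102 bases upstream of its start site, a ratio of 1.13 (0.28 to 2.06). Smurf1, a ubiquitin ligase gene that acts on receptors and SMADs, held 12 and 27, a ratio of 1.62 (0.64 to 2.78). These intervals lay above 0, as did those of Ltbp3 (19 and 29 reads), a latent TGF-β-binding protein gene, and of Bmp1 (2 and 12 reads), a procollagen protease gene. Ltbp2, a relative of Ltbp3, held 0 and 12 reads, a log2 ratio with a lower limit of 1.97. Smad7, an inhibitory SMAD gene, held 2 and 0 in an intronic region 2391 bases downstream of its assigned start site, at chr18:75377305-75377497. The better-read region assigned to Gm20544 lay nearby, at chr18:75366421-75367757, and whether it belongs to Smad7 was not tested.

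The TGF-β ligands, receptors and SMADs had a promoter region in 14 of 19 genes, 12 of them above 0, with a median ratio of 1.56. Only 2 reached the level minimum, and neither was 2-fold different. Smad6, an inhibitory SMAD gene, held 21 TGF reads and 28 siHK1 reads, a ratio of 0.89 (0.04 to 1.80), and Smad3 itself held 17 and 17, a ratio of 0.48 (-0.56 to 1.55). Tgfbr1, the type I receptor gene, held 3 and 14 on its start site, a ratio of 2.5 (0.88 to 5.16). Acvrl1, the ALK1 receptor gene, held 3 and 13, and Tgfb1, the ligand gene, 9 and 8. Smad4, the common partner, went the other way with 13 and 2 reads, a ratio of -1.99 (-5.40 to -0.06).

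Partner and co-regulator genes had a region in 22 of 29 genes, 17 of them above 0, and 5 of the 8 at the level minimum were higher, of which Fos and Ets1 passed it through the siHK1 library. The AP-1 genes Fos (6 and 17 reads) and Fosb (16 and 31 reads) had ratios of 1.90 (0.59 to 3.63) and 1.42 (0.53 to 2.42). Jun held 19 and 25 reads, a ratio of 0.87 (-0.03 to 1.83), and Sp1, the GC box factor, 30 and 39, a ratio of 0.86 (0.15 to 1.61). Runx1 held 19 and 13 reads and Ep300, the acetyltransferase, 9 and 3, with intervals that covered 0.

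**Figure D5:**
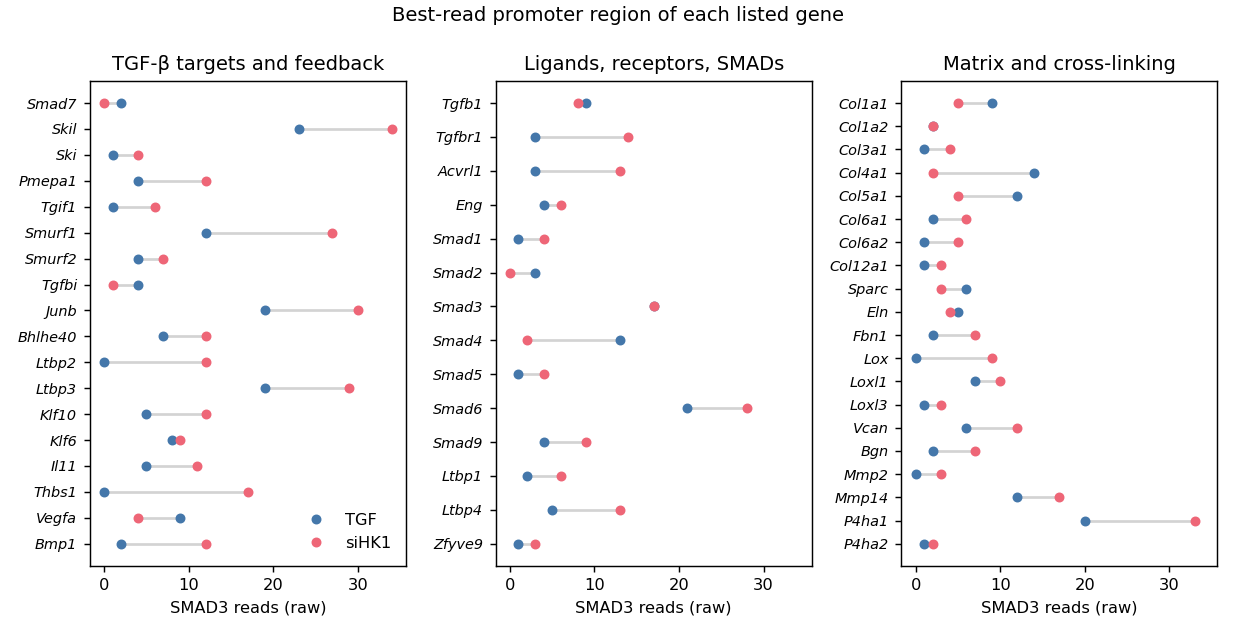
Raw SMAD3 reads (horizontal axis) in the TGF and siHK1 libraries for the best-read promoter regions of the genes in 3 lists. Among the target and feedback genes, Skil, Junb and Ltbp3 reach the highest levels, and for Smad3 (17 and 17) and Col1a2 (2 and 2) the points coincide.

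Matrix and cross-linking genes had a region in 20 of 34 genes, 16 above 0, with 104 TGF reads and 142 siHK1 reads. P4ha1, a collagen prolyl hydroxylase gene, had the most, 20 and 33 on its start site, a ratio of 1.19 (0.37 to 2.10). Lox, the lysyl oxidase gene, held 0 and 9, a log2 ratio with a lower limit of 1.48. The collagen genes held few reads, with ratios on both sides of 0. Col4a1 held 14 and 2, a ratio of -2.10 (-5.49 to -0.19), and for the others the intervals covered 0. Of those, Col1a1 held 9 and 5 reads and Col5a1 12 and 5. Above 0 were Col3a1 with 1 and 4, Col6a1 with 2 and 6, Col6a2 with 1 and 5, Col12a1 with 1 and 3 and Col1a2 with 2 and 2. Fn1 and Postn, matrix genes of activated fibroblasts, had no region.

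Of the contractile and cytoskeletal genes 18 of 28 had a region, 12 of them above 0, and both at the level minimum were higher, Myh9 having passed it through the siHK1 library. Myh9, non-muscle myosin heavy chain, held 7 and 27 reads 93 bases upstream, a ratio of 2.35 (1.21 to 3.89), and Zyx, zyxin, 14 and 21. Acta2, which encodes the smooth muscle actin that marks myofibroblasts, held 5 and 12 on its start site, a ratio of 1.65 (0.15 to 3.62), and Srf, the gene of serum response factor, 5 and 13. Tagln, Cnn1 and Actb had none.

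Glycolysis and lactate genes, the pathway of the knocked-down enzyme, had a region in 14 of 20 genes, with a median ratio of 0.70. Of 6 at the level minimum 2 were higher: Eno1, enolase, with 16 and 29 reads, and Pgam1, phosphoglycerate mutase, with 20 and 29. Aldoa (23 and 32) and Gapdh (22 and 31) lay just under 2-fold, at 0.95 and 0.97, with intervals above 0. The Gapdh region lay 819 bases from its assigned start site, over an untranslated exon of Iffo1. Ldha, lactate dehydrogenase A, held 13 and 11 reads, a ratio of 0.24 (-1.05 to 1.53). Hk1 itself had 5 promoter regions, the best with 9 and 10 reads, a ratio of 0.61 (-0.81 to 2.12).

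Histone acetyl and lactyl enzyme genes had a region in 9 of 19 genes, with 64 TGF reads and 59 siHK1 reads. Their median ratio was 0.75, 6 of the 9 were above 0, and the 2 at the level minimum were within 2-fold. Kat7 held 21 and 9 reads, a ratio of -0.70 (-2.04 to 0.46), and Hdac5 14 and 17, a ratio of 0.75 (-0.33 to 1.91). Ribosomal protein genes, taken as a comparison outside the pathway, had a region in 12 of 30 genes, 8 of them above 0, with 79 and 104 reads and a median ratio of 0.73, beside 0.83 over all genes. The order of the lists against all genes depended on the level. At the level minimum, where all genes had a median of 0.84, the ligands, receptors and SMADs had 0.69, glycolysis 0.96 and the ribosomal proteins 1.15, from 2, 6 and 4 genes. No list was tested.

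Promoter occupancy was also read for markers of cell types, which measures binding and not expression. Over all 21900 protein-coding genes in RefSeq, 7513 had a SMAD3 promoter region and 9466 a JUN region within 1 kb. Of 14 fibroblast markers 8 had a SMAD3 promoter region and 13 a JUN one, beside 3 and 2 of 11 cardiomyocyte markers, 4 and 6 of 9 endothelial markers, 3 and 4 of 10 macrophage and leukocyte markers, and 1 and 3 of 8 smooth muscle and pericyte markers. The fibroblast markers at the level minimum were Mfap5, Vim (9 and 22 reads), Gsn (5 and 16) and Pdgfrb (6 and 16). All 4 held under 10 scaled reads in the TGF library and passed the minimum through the siHK1 library, so their direction was set by that minimum. Summed over the markers with a region, reads were 38 in TGF and 102 in siHK1 for fibroblasts, 153 and 78 for cardiomyocytes, 23 and 26 for endothelium, 11 and 8 for leukocytes and 5 and 0 for smooth muscle. Most cardiomyocyte reads lay at Myh6, the adult cardiac myosin gene, with 137 and 70 reads on its start site, a ratio of -0.47 (-0.91 to -0.05), while Tnnt2, Tnni3 and Actn2 had no region. The same place held 162 and 52 reads for NFATC2 and 84 and 38 for JUN. The part of other cell types in these values was not tested.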

How the data were processed

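SMAD3 libraries were made by CUT&Tag from mouse cardiac fibroblasts, 1 per condition, and no replicates exist to give an error between samples. The authors deposited, for each region, the raw read count in each library and a 0 or 1 peak mark, with an annotation to the nearest gene. The submitters' processing notes name BWA 0.7.12 and mm10. The study's methods name Bowtie2, MACS2 and GRCm39. All 10357 promoter transcripts found in GENCODE vM21 had its GRCm38 coordinates, so coordinates are given on GRCm38. The tables also hold the authors' own normalized values, log2 ratios, p-values and calls, which were not used. The counts were scaled to equal totals over all SMAD3 regions (geometric mean), and log2 ratios of siHK1 over TGF were taken after adding 0.5. Named regions were, per class, the 4 furthest up and 4 furthest down at a mean scaled count of at least 10 on chromosomes 1 to 19 and X, the 10 best-read regions, the genes with the most regions, the best-read regions shared with all other antibodies and the best-read region of each listed gene. Members, lists, elements and rules were chosen with earlier results of these data known. Elements were counted in the central 200 bases on both strands. Ratio intervals are exact conditional binomial intervals. Ratios, calls, overlaps and element counts were tested on simulated data. Python 3.11.15, pandas 2.3.3, numpy 2.4.6, scipy 1.17.1 and matplotlib 3.10.9 were used. Alternatives were other scalings, pseudocounts, level minimums, overlaps and subsets. The totals cover listed regions and are no measure of sequencing depth. The tables of the untreated control and of the TGF library without a named antibody were not used here, and a few items covered by the rule for named regions are not reported here.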

Additional observations from a re-analysis of the deposited data

How the results depend on the processing

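No paired analysis was possible because there was a single library for each antibody and condition. The counts of promoter regions lower and higher in siHK1 (38 and 675) became 152 and 234 without scaling, 231 and 1926 at a level minimum of 5, 12 and 128 at 20, and 2057 and 4851 with no minimum. Within 1 kb the lower count was 16. With the median ratio of regions that had a peak in both libraries set to 0 they were 47 and 560, and with totals that leave out the most-read 1% of regions, added after seeing the data, 48 and 558. The median log2 ratio of promoter regions (0.79) stayed above 0 under each alternative run: 0.72 with the median of these shared regions at 0, 0.36 without scaling, 0.70 without the most-read 1%, 0.70 with a pseudocount of 1, 0.87 with 0.1, 0.84 at a level minimum of 10 and 0.95 within 1 kb. The median of all SMAD3 regions fell by 0.08 and 0.10 under these 2 scalings. By level the sign was not constant. At a mean scaled count of 50 or more the median was -0.37 for 61 promoter regions and -0.34 for 34 within 1 kb. Elsewhere 286 such regions had -0.34. Under 2 it was -0.37 for 1609 promoter regions, and in the bins between it ran from 0.40 to 0.98. Promoter minus elsewhere (1.01) was 0.90 with a pseudocount of 1, 1.10 with 0.1, 0.98 at a level minimum of 10 and 1.17 within 1 kb. Subsets added after seeing the data gave medians of 0.90 for repeats under 20% and 0.47 for peaks in both libraries, with differences of 0.64 and 0.56, and differences of 0.29 with JUN overlap and 0.78 without it. The promoter share of regions (18.9%) was 20.8% of covered length, 11.5% within 1 kb and 28.7% at a level minimum of 10. The overlap of promoter regions with JUN (44.6%) was 38.6% when at least 50% of the SMAD3 region had to be covered and 90.2% at a level minimum of 10, that with NFATC2 (21.5%) 14.2% and 67.8%, and that with H3K9lc (6.83%) 4.77% and 23.9%. The cause of these movements was not tested. Depth limits single regions, of which 1607 of 11098 reached a mean scaled count of 10.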

Other observations

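The number of GTCTG elements in a promoter window did not order the SMAD3 ratio evenly. At the level minimum, the median log2 ratio was 0.81 with 0 elements (1011 regions), 0.88 with 1 (414 regions), 1.10 with 2 (114 regions), 0.48 with 3 (38 regions) and 0.21 with 4 or more (30 regions). The promoter windows with 4 or more, 122 over all levels, were from regions with a median of 48.7% repeat-masked bases, against 8.46% for those with 0 elements. Away from promoters the medians at the level minimum were -0.23, 0.29, 0.34, -0.04 and -0.22 in the same order. Sec22c, a vesicle transport gene, held 7 elements in a region with 3.68% repeat-masked bases, and 17 TGF reads and 36 siHK1 reads. Clvs1, a lipid-binding protein gene, held 6 elements in a region with none, and 25 and 16 reads. Both were chosen after their values were seen.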
